A study of Homo sapiens with 18 samples.

Results

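Of the 9 poly(A) libraries made from DLD1, a human colorectal carcinoma cell line, 2 held transcripts that the other 7 held little or none of. They were the second replicate of ZNF692 guide 1 (sgZ1) and the third replicate of guide 3 (sgZ3). Both were chosen by measured values, the counts of VIM, SPARC, COL1A1, CALB2 and THBS2, and are called the VIM-high libraries here. The 4 remaining sgZ1 and sgZ3 libraries, called their sisters, were not free of VIM, which stood at 0.108 to 0.606 CPM in them (CPM, counts scaled to a common library size), so the distinction is one of level. A gene was counted as added where the fit with guide as a block gave at least a 4-fold higher level, both VIM-high libraries exceeded all 4 sisters, and both reached 0.5 CPM. By this rule 155 of 15480 tested genes were added, 1.00%. Since the same contrast picked the libraries, their differences from the sisters are described without a test.

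The study compared cells carrying sgZ1 or sgZ3, labelled as ZNF692 knockouts, with cells carrying a control guide, sgC, in 3 poly(A) and 3 ribosomal RNA libraries per guide, 18 in all. All 3 groups received lentivirus, were selected with 10 µg/ml puromycin and were grown as stable lines in the same serum-containing medium. The labels give triplicates and no word on separate cultures or clones, so each p-value reflects the spread among libraries, which may be technical. Total counts per poly(A) library lay between 16044224 and 24535642. ZNF692 itself stood at 9.82 and 6.29 CPM in the VIM-high libraries of sgZ1 and sgZ3, against 9.64 and 11.5 CPM in the sgZ1 sisters and 7.92 and 8.08 CPM in the sgZ3 sisters. The sgC libraries had 7.01, 6.32 and 6.18 CPM. No sgZ1 or sgZ3 library but sgZ3 replicate 3 lay below the highest sgC library, and RNA level does not report on a small edit in the gene.

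Vimentin, encoded by VIM, is the intermediate filament of fibroblasts, endothelium and other cells of mesenchymal origin, and most carcinoma cells of the gut carry keratins in its place. Mesothelial cells, which line the body cavities, carry both, and calretinin (CALB2), WT1 and uroplakins are used to recognise them. SPARC, the collagens and the thrombospondins are secreted into the matrix around such cells. In bulk RNA, a few cells rich in a transcript and many cells with little of it cannot be told apart.

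The genes that had picked out the libraries were as follows. VIM, on chromosome 10 at 17228259 to 17237593 in GRCh38, had 22.9 and 21.2 CPM in the VIM-high libraries, against 0.606, 0.493, 0.135 and 0.108 CPM in the sisters. SPARC, a collagen-binding matrix glycoprotein, had 64.3 and 66.8 CPM in the VIM-high libraries, against 3.73 to 5.91 CPM in the sisters. The sisters thus held a steady low SPARC level, and so did the sgC libraries, at 5.11 to 5.73 CPM. COL1A1, the alpha 1 chain of type I collagen, had 12.2 and 15.2 CPM, against 1.40 and 1.18 CPM in the sgZ1 sisters and 0.271 and 0.217 CPM in the sgZ3 sisters. CALB2 had 11.1 and 9.39 CPM, against 0.233 and 0.493 CPM in the sgZ1 sisters and no count in the sgZ3 sisters or in sgC. THBS2, a thrombospondin that binds matrix proteases, had 18.8 and 18.5 CPM, against 0.325 to 0.839 CPM in the sisters. In each of these 5 genes the VIM-high libraries lay above all 7 others and close to each other.

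**Figure D1:**
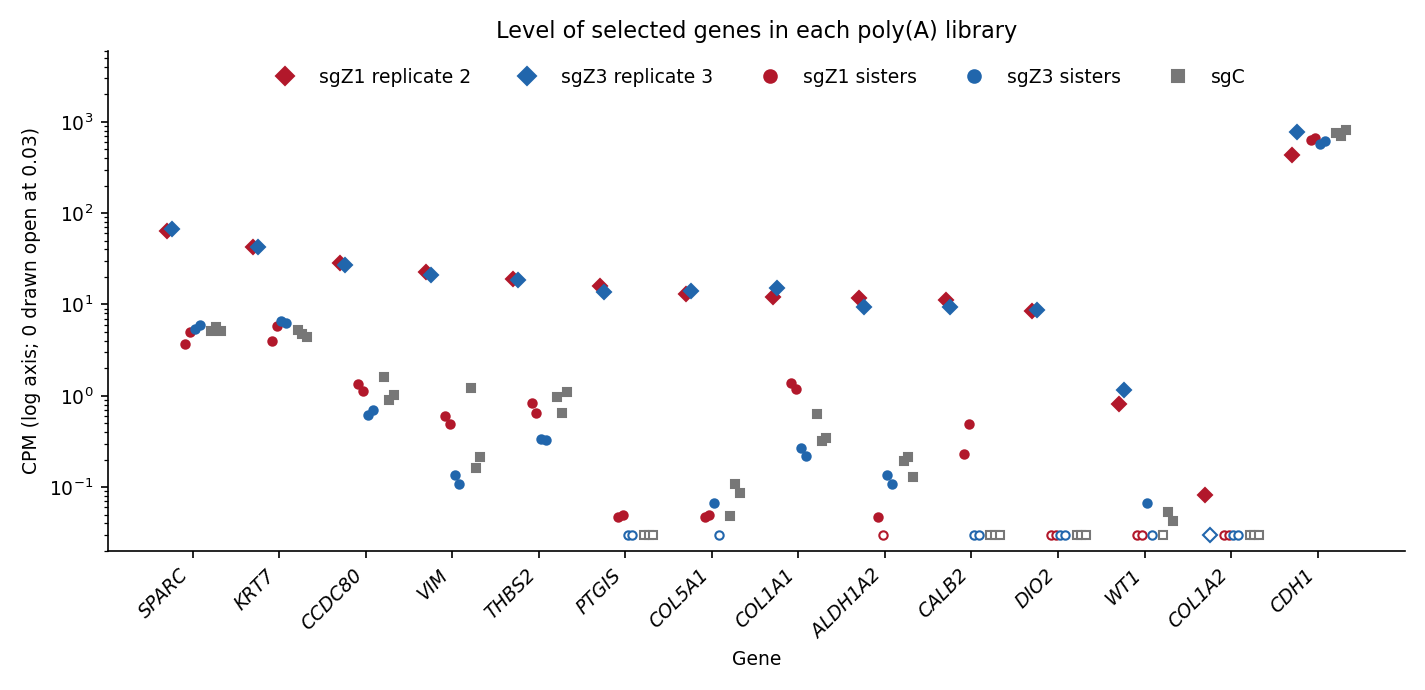
Level of 14 genes in each poly(A) library, in CPM on a log axis, with the VIM-high libraries as diamonds, their sisters as circles and sgC as squares. For 12 of the genes the diamonds lie together above every other symbol, while COL1A2 was at or near 0 in all libraries, and the epithelial gene CDH1 was high in all.

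The genes with the most added RNA beyond those 5 were of several kinds. ALDH1A3, a retinaldehyde dehydrogenase, had 58.5 and 43.5 CPM in the VIM-high libraries, against 19.7 and 19.1 CPM in the sgZ1 sisters and 6.29 and 7.32 CPM in the sgZ3 sisters. KRT7, a keratin of simple epithelia and mesothelium, had 42.5 CPM in both, against 4.01 to 6.63 CPM in the sisters. CCDC80, a secreted matrix protein, had 28.2 and 26.8 CPM, against 0.609 to 1.35 CPM in the sisters. HEG1, a membrane mucin, had 26.2 and 30.1 CPM, against 2.64 to 7.88 CPM. These genes had a measurable level in every sister. Per kilobase of exon, the excess over the own sisters, averaged over both libraries, was 12.5 CPM per kb for SPARC, 8.99 for KRT7, 5.92 for CALB2 and 4.20 for VIM.

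A second set had next to nothing in the sisters. DIO2, the deiodinase that activates thyroid hormone, had 207 and 173 counts, 8.47 and 8.78 CPM, in the VIM-high libraries and no count in the 4 sisters or the 3 sgC libraries. Against the limit of 3 counts over the 4 sisters, DIO2 was at least 216-fold higher. PSG1, a pregnancy-specific glycoprotein, was at least 124-fold higher, and SLIT3, a secreted guidance protein, at least 84.6-fold higher. In all, 18 added genes had no count in any sister. PTGIS, prostacyclin synthase, had 386 and 273 counts in the VIM-high libraries and 2 counts over the 4 sisters. EDIL3, a secreted integrin ligand, had 284 and 195 counts against 1. CDH11, the cadherin of mesenchymal cells, had 183 and 151 counts against 1, and COL5A1, a type V collagen chain, had 315 and 280 counts against 3.

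A core set was taken without any fit, as genes at 2 CPM or more in both VIM-high libraries and under 0.5 CPM in each of the other 7. It held 28 genes, 0.0598% of the 46785 genes listed. These limits already set the libraries more than 4-fold apart, so that all 28 were among the 155 follows from them. They included ALDH1A2, ANXA8, ARSI, BNC1, BST2, CALB2, CDH11, COL5A1, DDR2, DIO2, EDIL3, EFEMP1, GJA1, IFI16, KCNMA1, LAMA4, MYPN, OLFML1, PIEZO2, PLXDC2, PSG1, PTGIS, ROBO1, SLIT3, SULF1, TENM2 and UPK1B. Their summed level was 167 and 157 CPM in the VIM-high libraries, against 1.03 to 2.86 CPM in the sisters and 1.83 to 2.34 CPM in sgC. The other 7 libraries thus held 0.636% to 1.76% of the mean of the VIM-high libraries, resting on 18 to 58 counts each. That this share is low follows in part from the limit of 0.5 CPM. The 155 added genes together summed to 893 and 839 CPM, against 142 and 152 CPM in the sgZ1 sisters, 62.7 and 64.5 CPM in the sgZ3 sisters, and 88.6 to 95.8 CPM in sgC.

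**Figure D2:**
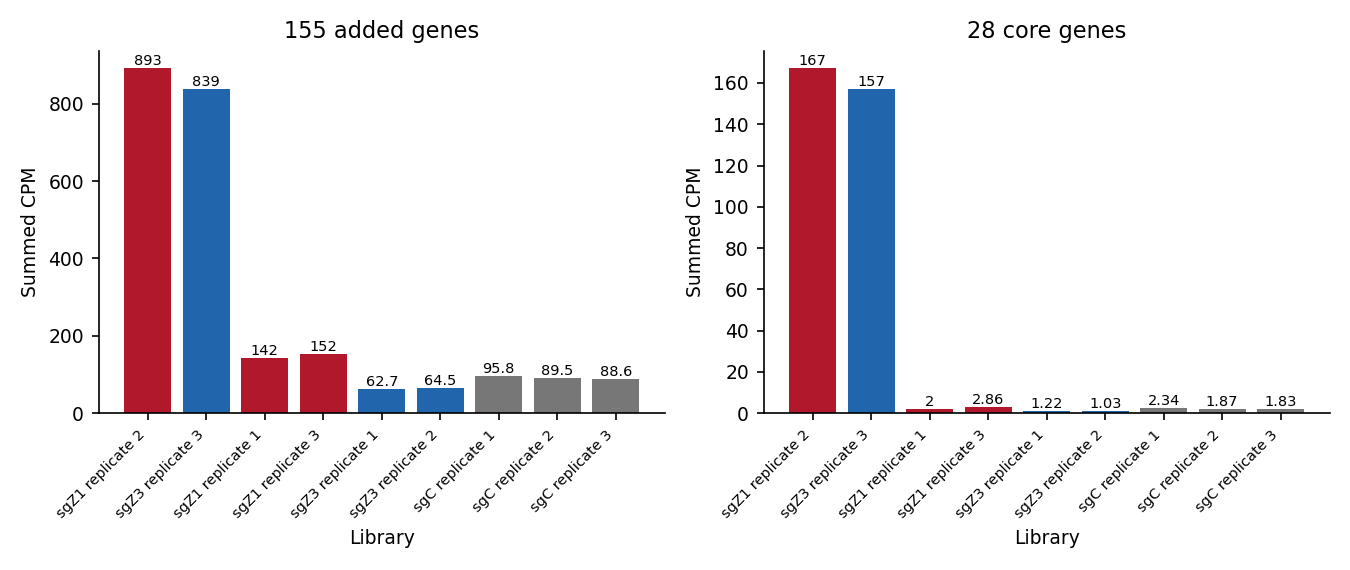
Summed CPM of the 155 added genes (left) and of the 28 core genes (right) in each poly(A) library, with bars from 0 coloured by guide. The 2 VIM-high libraries stand at 893 and 839 CPM for the added genes, and the core genes sum to at most 2.86 CPM in the other 7.

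The added genes were mostly protein coding, 97.4% against 86.0% of all tested genes. They lay on 22 chromosomes, with 16 on chromosome 5, which is 10.3% of them against 4.48% of all tested genes. Of the 155, 154 were also above all 3 sgC libraries. The exception was SNRPN, at 0.614 and 0.812 CPM in the VIM-high libraries against up to 0.633 CPM in sgC. Only 21 reached 10 CPM in both VIM-high libraries, and 85 stayed under 2 CPM in at least one of them. The median fitted log2 fold change was 3.83, the same with the 18 genes without sister counts set at their lower bound, against 0.00 over all tested genes. Just inside the fold limit were MRGPRF, FOXF1 and SPART, at 2.00, 2.02 and 2.06 on the log2 scale. Just outside were CCDC83, ADAMTS2 and DYSF, at 1.99, 1.95 and 1.95.

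Markers of other cell types were counted among the added genes, list by list. Of 15 mesothelial markers listed, 13 were tested and 10 were added. CALB2, 1 of the 10, had helped to choose the libraries. ALDH1A2, BNC1, ITLN1, PDPN, UPK1B and WT1 had at most 7 counts each over the sisters and passed the low-count filter through the VIM-high libraries. The number added is thus a description and no measure of likeness. ALDH1A2, the retinaldehyde dehydrogenase of embryonic mesothelium, had 11.7 and 9.44 CPM, against at most 0.135 CPM in the sisters. UPK3B, a uroplakin, had 19.98 and 18.4 CPM, against 3.26 to 5.15 CPM. BNC1, a zinc-finger factor of mesothelium and stratified epithelia, had 4.34 and 2.89 CPM, against at most 0.0466 CPM. WT1, a transcription factor of mesothelium and kidney, had 0.819 and 1.17 CPM, resting on 20 and 23 counts, against at most 0.0677 CPM. CPA4, ITLN1, KRT5, PDPN and UPK1B were also added. MSLN, mesothelin itself, was not: it had 4.83 and 4.16 CPM, within the 1.84 to 6.11 CPM of the sisters. LRRN4 and KLK11 were not added either, and HAS1 and PRG4 had 1 and 5 counts in the VIM-high libraries together. The list summed to 83.7 and 72.1 CPM in the VIM-high libraries, against 13.8 to 23.2 CPM in the sisters and 11.1 to 12.2 CPM in sgC.

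Of 24 fibroblast and mesenchymal markers listed, 17 were tested and 9 were added. VIM, SPARC and COL1A1, 3 of the 9, had helped to choose the libraries, and COL3A1, COL5A1 and MMP2 had at most 3 counts over the sisters and passed the filter through the VIM-high libraries. The others were FBN1, LOX and PDGFRB. FBN1, the fibrillin of microfibrils, had 7.08 and 10.6 CPM, against 0.345 to 0.812 CPM in the sisters. COL3A1 reached only 0.737 and 0.660 CPM. The markers that define fibroblasts most narrowly were near 0: COL1A2 had 2 counts, LUM 1, FAP 1 and DCN 0 in the VIM-high libraries together, and PDGFRA, TCF21, COL6A3 and TWIST1 stayed under 0.5 CPM in both. COL1A1 was present without COL1A2, the other chain of type I collagen. The list summed to 277 and 225 CPM in the VIM-high libraries, against 89.3 to 174 CPM in the sisters and 75.3 to 91.0 CPM in sgC.

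All 6 tested trophoblast markers were added, namely KRT7, HSD3B1, PAPPA, PSG1, PSG4 and PSG5, but the other 6 on that list had no such level. CGA and CGB5, subunits of chorionic gonadotropin, had 1 count each over both VIM-high libraries, and GCM1, ERVW-1, ERVFRD-1 and PSG3 were at or below 0.0819 CPM. PAPPA, PSG1, PSG4 and PSG5 passed the low-count filter only through the VIM-high libraries, so 6 of 6 is not a share of the list. The PSG genes are near-identical copies in a row on chromosome 19, so reads could be divided between them, and their single values are uncertain. The same holds for ANXA8 and ANXA8L1. HSD3B1, a steroid dehydrogenase of placenta, had 10.2 and 9.13 CPM, against 0.652 to 2.504 CPM in the sisters.

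Other lists contributed single members. The smooth muscle list had 2 of 11 tested members added, MYLK and CNN1, with ACTA2 at 1.23 and 2.13 CPM against 0.812 to 1.92 CPM in the sisters and MYH11 near 0. The endothelial list had 1 of 5, KDR, while EMCN and PLVAP had no count and CDH5 had 0.0409 and 0 CPM. The keratinocyte list had 2 of 8, KRT5 and KRT17, with TP63 at most 0.152 CPM. No tested member was added of the osteoblast, chondrocyte, adipocyte, skeletal muscle, leukocyte, erythroid, neural, melanocyte, hepatocyte, embryonic kidney or germ cell lists. They had 1 to 7 tested members each, too few to set 0 apart from the 1.00% of all tested genes. PTPRC, the common leukocyte antigen, and ALB, the albumin of hepatocytes, had no count in either library. Among 32 tested HOX genes, which record position along the body axis, none was added, near the 1.00% of all tested genes. The HOX list summed to 559 and 619 CPM in the VIM-high libraries, against 594 to 640 CPM in the sisters. HOX RNA added to what DLD1 makes itself could thus go unseen.

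**Figure D3:**
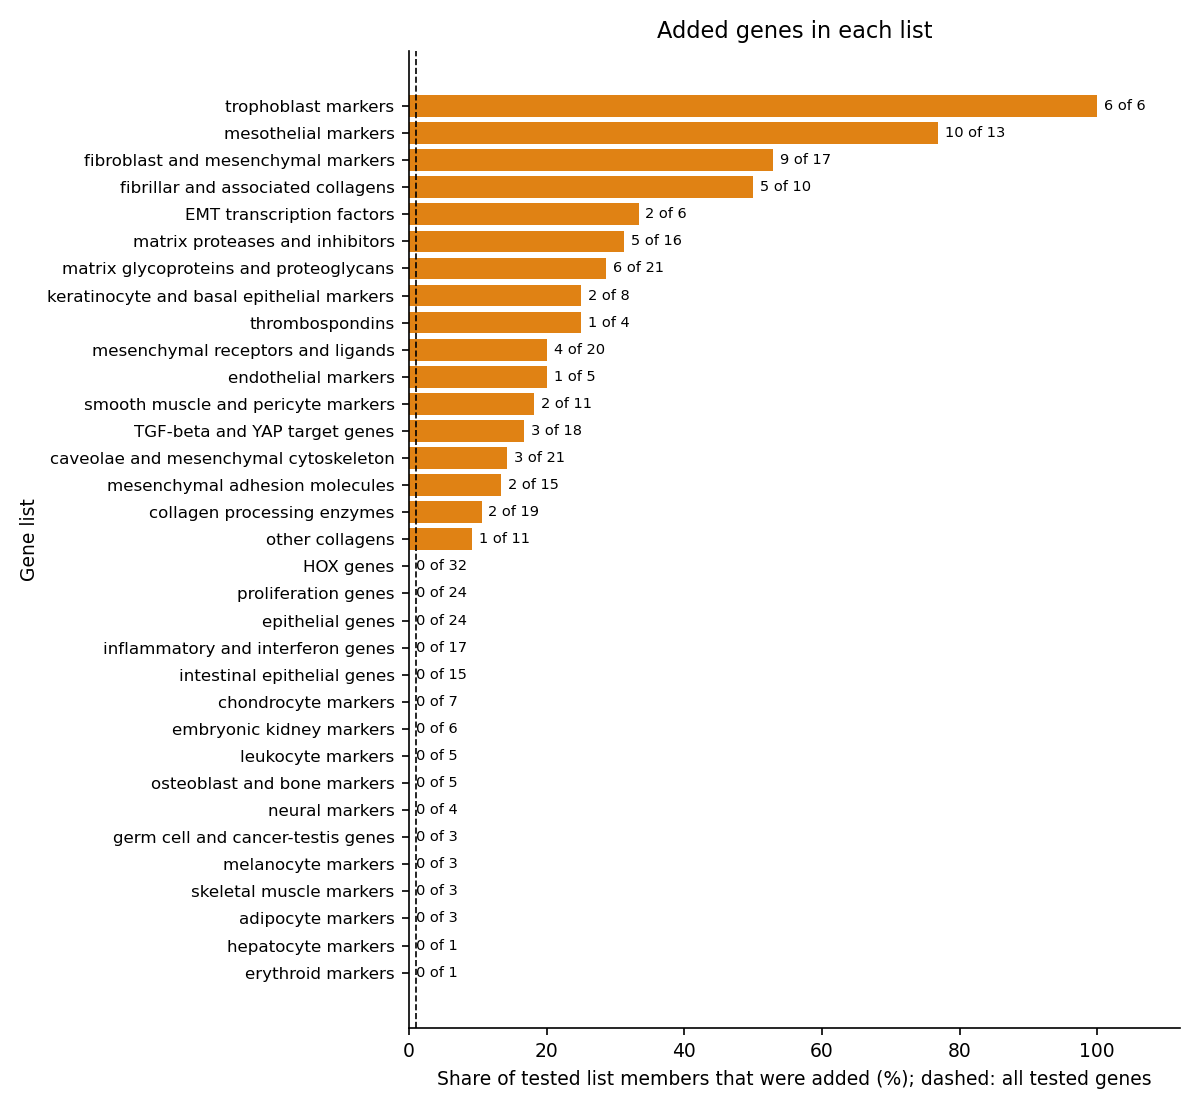
Share of each list's tested members that were added, in percent, with the counts beside the bars and the share over all tested genes, 1.00%, as a dashed line. Since members could pass the filter through the VIM-high libraries, and the mesothelial and fibroblast lists hold markers that chose them, the order of the bars is no ranking of likeness; 16 lists have no added member.

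Matrix genes were added in part. COL1A1, SPARC and THBS2 had helped to choose the libraries. BGN, COL3A1, COL5A1, MFAP5, ADAMTS12, MMP2 and ZEB2 had at most 3 counts each over the sisters. They passed the low-count filter through the VIM-high libraries. The numbers below are thus a description, beside 1.00% of all tested genes. Of the fibrillar and associated collagens 5 of 10 tested were added: COL1A1, COL3A1, COL5A1, COL5A2 and COL12A1. Of the other collagens 1 of 11 was, COL4A1 of basement membranes, at 14.7 and 15.3 CPM against 1.29 to 2.61 CPM in the sisters. Of the matrix glycoproteins and proteoglycans 6 of 21 were added: BGN, FBN1, FBN2, FSTL1, MFAP5 and SPARC. FN1, fibronectin, stayed short of 4-fold, at 9.87 and 8.63 CPM against 2.494 to 5.17 CPM in the sisters. Of the proteases and inhibitors 5 of 16 were added, among them ADAM12, ADAMTS1, ADAMTS12 and MMP2, and THBS2 was the one of 4 tested thrombospondins. The collagen cross-linkers LOX and LOXL2 were 2 of 19 processing enzymes, and no other was added. ZEB1 and ZEB2, repressors of epithelial genes, were 2 of 6 transcription factors of the epithelial-mesenchymal transition. ZEB1 had 1.39 and 1.27 CPM, against at most 0.296 CPM in the sisters. SNAI2 stayed at or under 0.254 CPM in all 6 libraries.

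Listed receptors, ligands and adhesion genes were also added in part, against 1.00% of all tested genes. Members could pass the filter through the VIM-high libraries, as CDH11 did with 1 count over the sisters. AXL, a receptor tyrosine kinase, had 24.6 and 18.4 CPM, against 8.80 and 9.71 CPM in the sgZ1 sisters and 0.677 and 0.922 CPM in the sgZ3 sisters. PDGFRB, the platelet-derived growth factor receptor of pericytes and fibroblasts, had 2.99 and 3.60 CPM, against 0.338 to 1.28 CPM. With the ligand PDGFD and the binding protein IGFBP7 these made 4 of 20 tested. CDH11 and L1CAM were 2 of 15 adhesion molecules. The oxytocin receptor OXTR had 5.44 and 5.23 CPM, against 0.338 to 0.591 CPM in the sisters, and was named after its values were seen. So were the interferon-inducible genes BST2, IFI44, OAS2 and TRIM22. The fixed inflammatory and interferon list had 0 of 17 tested members added, near the 1.00% of all tested genes. IFI16, a sensor of DNA, had 2.497 and 2.64 CPM and no count in the sisters.

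Epithelial genes stayed near the sisters' levels. None of 24 epithelial genes was added or lower, with a median log2 fold change of -0.09, and none of 15 tested intestinal genes, with a median of -0.10. CDH1, the epithelial cadherin, had 435 and 767 CPM, against 577 to 671 CPM in the sisters, so the VIM-high libraries lay on opposite sides of them. Over the 24 epithelial genes the median level was 93.2% of its own sisters in sgZ1 replicate 2 and 92.5% in sgZ3 replicate 3. One sister stood at 89.7% of the other under sgZ1, and at 95.8% under sgZ3. None of 24 proliferation genes was added. For each of these 3 lists, none added is near the 1.00% of all tested genes.

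The amount of added RNA was nearly the same in both libraries. The excess of the 155 genes over the own sisters came to 746 CPM in sgZ1 replicate 2 and 775 CPM in sgZ3 replicate 3. That is 0.0743% and 0.0741% of the library's counts, or 18221 and 15277 counts. The 28 core genes alone made up 0.0164% and 0.0149%. SPARC held 7.96% of the excess, the first 5 genes 25.4%, and the first 20 genes 57.4%. The sum covers only genes called added. RNA of genes that DLD1 makes itself at a like level cannot be seen by this contrast and is not in the sum, which also moves with the sisters it is set against. The share of all RNA that came with these transcripts was not measured. Without sgZ3 replicate 2 the share was 0.119% in sgZ1 replicate 2 and 0.0988% in sgZ3 replicate 3. In that case 6 genes entered the set, led by CH507-513H4.3 and CH507-513H4.4, at 756 and 359 CPM in the sister left out.

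Read separately, each library against its own sisters with 0.25 CPM added to each level, the libraries shared 71 genes past 4-fold, more of those chosen in sgZ1 replicate 2 than of those chosen in sgZ3 replicate 3. These 2 readings share no library, but both libraries were chosen for high counts of the same marker genes. Their agreement follows in part from that choice and is only described. Of 95 genes at least 4-fold higher in sgZ1 replicate 2, 71 were also 4-fold higher in sgZ3 replicate 3. That is 74.7%, against 0.321% there over all 46785 listed genes, tested or not. Of 150 genes past the limit in sgZ3 replicate 3, the same 71 are 47.3%, against 0.203% of the listed genes in sgZ1 replicate 2. For the 155 genes the excess in sgZ3 replicate 3 was a median 1.02 times that in sgZ1 replicate 2, with an interquartile range of 0.862 to 1.21. The extremes were ITLN1 at 0.401 and FOXF1 at 2.42. Across all 15480 tested genes the Pearson correlation of both log2 fold changes was 0.18, and without the 155 it was -0.21. Genes are not independent replicates, and the libraries were made under different guides.

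**Figure D4:**
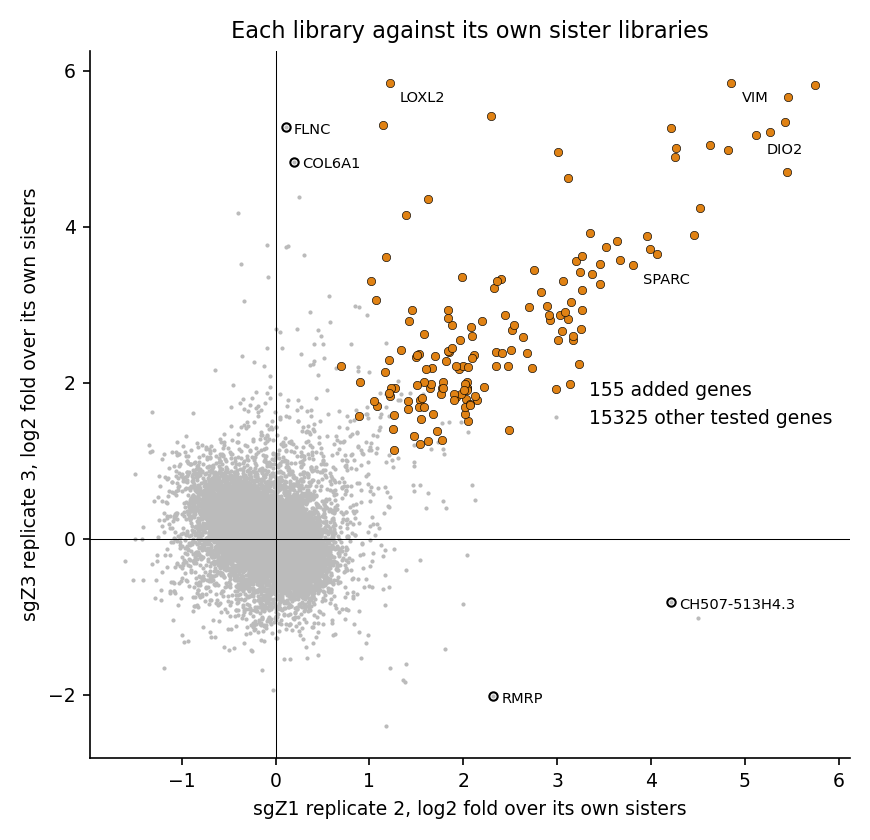
Log2 fold change of each tested gene in sgZ3 replicate 3 (vertical) and sgZ1 replicate 2 (horizontal) over the mean of its own 2 sisters, with 0.25 CPM added. The 155 added genes, in orange, lie up and to the right, VIM at 5.85 on the vertical and 4.86 on the horizontal axis, while FLNC and COL6A1 lie high in sgZ3 replicate 3 only.

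Genes high in one reading alone were mostly ones that the sgZ1 sisters expressed. At least 4-fold higher in sgZ3 replicate 3 but under 1.5-fold in sgZ1 replicate 2 were 34 genes, and 32 of them were higher in all 3 sgZ1 libraries than in sgZ3 replicate 3. FLNC, filamin C, had 28.4 CPM in sgZ3 replicate 3, against 0.541 and 0.434 CPM in its sisters, and 41.6, 35.7 and 41.5 CPM in the sgZ1 libraries. Its excess was 27.9 CPM in sgZ3 replicate 3 and 2.98 CPM in sgZ1 replicate 2. COL6A1, a collagen VI chain, had an excess of 19.5 CPM in sgZ3 replicate 3 and 4.99 CPM in sgZ1 replicate 2. For COL6A2, its partner chain, the values were 5.89 and -5.41 CPM. In these genes the sgZ1 sisters differ from each other by several CPM, which limits what an excess in sgZ1 replicate 2 can show. The 6 genes past the limit in sgZ1 replicate 2 but under 1.5-fold in sgZ3 replicate 3 were CH507-513H4.4, CH507-513H4.3, RMRP, KRT34, SCARNA2 and H4C5. RMRP, an RNA of a ribonuclease, had 13.0 CPM there and 85.5 CPM in sgZ3 replicate 2, so this set varied among the sisters too.

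RNA of the sgZ1 cells was looked for in sgZ3 replicate 3 with 131 genes that mark the sgZ1 sisters, over 2 CPM in both and under 0.5 CPM in the sgZ3 sisters and in sgC. The VIM-high libraries took no part in this choice. They summed to 94.5 CPM in sgZ3 replicate 3, against 15.4 and 13.4 CPM in its sisters, and 1106 to 1248 CPM in the sgZ1 libraries. Their summed excess over the sgZ3 sisters was 80.1 CPM, or 7.18% of their sum in sgZ1 replicate 2. This sum includes 3 of the 155 added genes, LOXL2, COL12A1 and SPEG, at 20.9, 11.8 and 2.82 CPM of excess. Gene by gene the excess was a median 1.17% of the sgZ1 sisters' level, with a range of -6.75% to 222%, and 32 of the 131 reached 0.5 CPM in sgZ3 replicate 3. LOXL2, a lysyl oxidase, had 21.1 CPM in sgZ3 replicate 3, against 8.99 and 11.8 CPM in the sgZ1 sisters. MAGEB2, a cancer-testis gene, had 0.406 CPM in sgZ3 replicate 3, against 0.203 and 0.325 CPM in its own sisters and 71.7 to 84.1 CPM in the sgZ1 libraries. GTSF1 had 0.304 CPM there, against 0.271 CPM in both sisters and 57.6 to 72.4 CPM under sgZ1. DKK1 and MSH6 passed 0.5 CPM in the sgZ3 sisters and so were not among the 131. DKK1 had 8.27 CPM in sgZ3 replicate 3, against 0.744 and 1.03 CPM in its sisters and 290 to 381 CPM under sgZ1. MSH6 had 8.53 CPM, against 4.40 and 4.45 CPM, and 67.3 to 74.8 CPM under sgZ1. Of the 131, the genes at 0.5 CPM or more in sgZ3 replicate 3 included the matrix genes COL12A1 and COL6A2 and the contractile gene TPM2. These 3 were named after their values were seen.

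**Figure D5:**
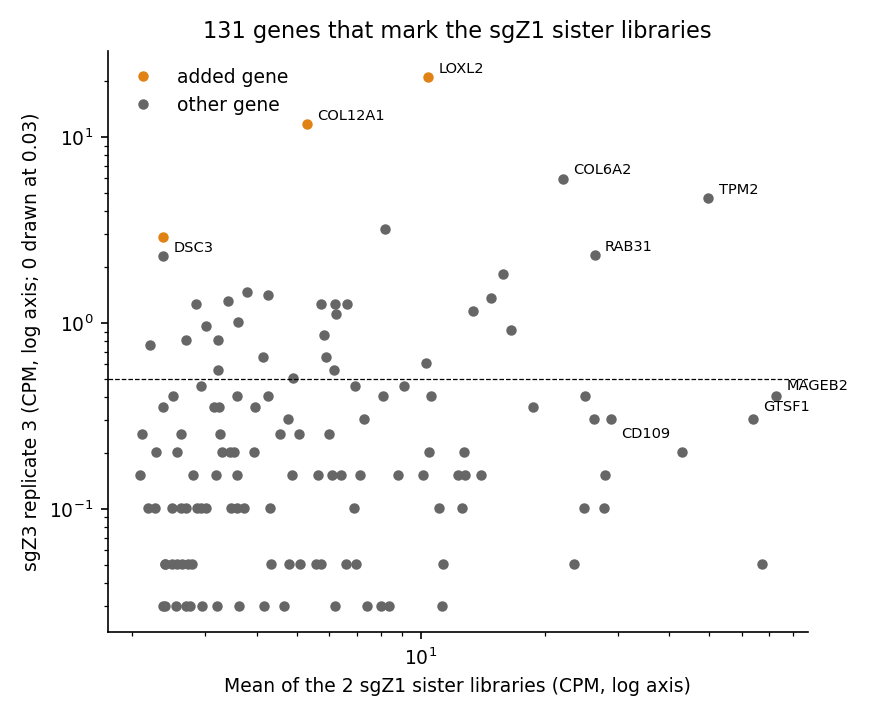
Level in sgZ3 replicate 3 (vertical) against the mean of the sgZ1 sisters (horizontal) for the 131 genes that mark the sgZ1 sisters, in CPM on log axes, with 0.5 CPM dashed. The added genes, in orange, and some others lie above the line, while MAGEB2 stays at 0.406 CPM.

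Few genes were lower. DSCAML1 and SLX1B were at least 4-fold lower in the VIM-high libraries and below all sisters, 0.0129% of those tested, and neither exceeded 0.152 CPM in the VIM-high libraries. Among genes with a sister mean of 5 CPM or more, the lowest fitted log2 fold changes were those of RPS28P7, CHCHD10, NEB, PXMP2, SRXN1, ATP5F1D, PRR5-ARHGAP8 and 1 further entry, from -1.14 to -0.75. CHCHD10, a mitochondrial protein, had 18.3 and 18.5 CPM, against 27.7 to 53.7 CPM in the sisters. The sgC libraries, at 20.04 to 33.0 CPM, overlapped the sisters.

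Promoter sequence was taken from RefSeq (GRCh38.p14), from 250 bases before to 50 after the gene start in its table, and 114 of the 155 added genes matched. The TEAD motif GGAATG, on either strand, occurred in 22.8% of these 114, against 11.0% of the 11241 matched tested genes and 14.0% of all 27305 promoters. The AP-1 motif TGANTCA occurred in 8.77%, 4.70% and 7.76% of the same sets, and TATAAA, on the gene's strand, in 7.89%, 4.08% and 7.71%. CACGTG, an E-box, occurred in 5.26%, 9.87% and 7.43%. The median ratio of observed to expected CpG was 0.646 in the promoters of the added genes and 0.834 in those of all tested genes. The 3 added genes with the highest excess that hold GGAATG, and the 1 with the highest excess that holds TGANTCA, are shown on their own strand, with the motif in capitals. One chromosome was not used for this choice. The RefSeq starts of MYLK and DIO2 lie well inside the GENCODE 29 spans of these genes, chr3:123610049-123884331 and chr14:80197527-80387757, and which start was in use was not tested. THBS2 holds the motif once on each strand, and a match is only a match of letters.
SPARC at its RefSeq start, chr5:151686866-151687165, minus strand: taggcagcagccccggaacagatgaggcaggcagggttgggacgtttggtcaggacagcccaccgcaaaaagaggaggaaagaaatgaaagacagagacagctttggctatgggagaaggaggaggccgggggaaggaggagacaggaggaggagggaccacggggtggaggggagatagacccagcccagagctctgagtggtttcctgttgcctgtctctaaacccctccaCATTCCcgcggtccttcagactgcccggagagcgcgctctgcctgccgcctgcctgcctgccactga
THBS2 at its RefSeq start, chr6:169253797-169254096, minus strand: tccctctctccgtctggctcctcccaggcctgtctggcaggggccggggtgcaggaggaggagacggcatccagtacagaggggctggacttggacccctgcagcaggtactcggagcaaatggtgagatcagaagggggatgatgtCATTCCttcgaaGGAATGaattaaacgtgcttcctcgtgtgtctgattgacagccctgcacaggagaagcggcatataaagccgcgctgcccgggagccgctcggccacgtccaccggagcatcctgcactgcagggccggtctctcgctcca
MYLK at its RefSeq start, chr3:123620499-123620798, minus strand: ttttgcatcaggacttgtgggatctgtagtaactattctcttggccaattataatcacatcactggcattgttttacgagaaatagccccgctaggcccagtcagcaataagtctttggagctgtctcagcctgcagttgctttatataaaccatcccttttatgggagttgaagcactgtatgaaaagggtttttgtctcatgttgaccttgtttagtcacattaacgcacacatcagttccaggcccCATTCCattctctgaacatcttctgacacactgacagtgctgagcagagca
DIO2 at its RefSeq start, chr14:80211455-80211754, minus strand: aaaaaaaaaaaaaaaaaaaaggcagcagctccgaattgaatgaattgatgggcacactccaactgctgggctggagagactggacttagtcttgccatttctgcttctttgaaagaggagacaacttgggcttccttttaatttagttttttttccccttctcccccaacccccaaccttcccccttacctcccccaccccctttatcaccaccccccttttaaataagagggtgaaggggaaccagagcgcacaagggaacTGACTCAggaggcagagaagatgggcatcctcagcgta

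The added genes also bore on the guide comparisons. With edgeR over all 9 libraries, 55 of the 155 passed the filter, and at a false discovery rate of 0.05 few were called. For sgZ1 against sgC 5 were higher, against 15.5% of all tested genes, namely MRGPRF, CPA4, GSDME, SPEG and FOXF1. For sgZ3 against sgC 1 was, CPA4, against 19.2%, and for both guides 3 were, CPA4, MRGPRF and FOXF1, against 18.6%. None was lower in any of these comparisons, also at an unadjusted p under 0.05 and with DESeq2. The added genes had been chosen for a high library under each guide. In those libraries 154 of the 155 lay above all sgC libraries. The lack of lower calls thus follows largely from that choice. VIM had a log2 fold change of 3.93 in sgZ1 (SE 2.48, edgeR adjusted p = 0.302), with 1 of 3 sgZ1 libraries high. These comparisons share the sgC libraries. Calls depended on the filter: with no filter all 155 were tested, and 123, 114 and 124 were higher in the same comparisons. Over all genes tested without a filter, 9.97%, 10.3% and 10.5% were higher. DESeq2 called 10, 4 and 10 of 55, against 16.1%, 20.5% and 19.6% of all tested genes. With sgC replicate 1, 2 or 3 left out, 151 of the 155 were tested, another set than the 55. None of them was higher, against 8.96% to 15.3% of all tested genes. Without sgZ3 replicate 3 the number for sgZ1 was 16 of 53, against 18.8%.

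Without both VIM-high libraries 43 of the 155 passed, and the calls were of another kind. For sgZ1 against sgC 13 were higher and 1 lower, against 22.1% and 17.4% of all tested genes. For sgZ3 against sgC 4 were higher and 19 lower, against 23.9% and 31.3%. For both guides 9 were higher and 15 lower, against 23.1% and 26.6%. For sgZ3 against sgZ1 1 was higher and 22 lower, against 23.2% and 29.9%. The added genes had been chosen for low values in these very sisters, so the lower calls are given as a description. Over all genes the share called for both guides was 49.7% without the VIM-high libraries and 33.1% with them. LOXL2 had a log2 fold change of 6.27 in sgZ1 against sgC (SE 0.29, edgeR adjusted p = 3.93e-16), with both sgZ1 sisters above all 3 sgC libraries. FSTL1, a secreted glycoprotein, had 2.76 in sgZ1 (SE 0.20, edgeR adjusted p = 1.53e-11) and -1.35 in sgZ3 (SE 0.39, edgeR adjusted p = 0.00415). SPARC, VIM and KRT7 were not called in sgZ1, and among them KRT7 was in sgZ3, at 0.39 (SE 0.16, edgeR adjusted p = 0.0461). Some matrix genes were thus higher in sgZ1 also without its VIM-high library.

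The ribosomal RNA libraries that carry the same replicate numbers were the one set of values that took no part in the choice. Whether they came from the same RNA is not stated. The 5.8S entries made up 0.547% and 0.164% of the estimated counts in the libraries numbered as the VIM-high ones of sgZ1 and sgZ3, against 0.139% and 0.276% in the sgZ1 sisters, 0.134% and 0.109% in the sgZ3 sisters, and 0.178% to 0.417% in sgC. The 18S entries made up 4.14% and 3.70%, against 3.57% to 3.82% in the sisters, and the 28S entries 20.8% and 21.1%, against 20.8% to 21.7%. With 9 arrangements within guides, the two-sided exact permutation test cannot go below p = 0.111. The lowest p of the 20 entries was 0.111, adjusted to 0.37, so this design could not show a difference.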

How the data were processed

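Poly(A) RNA was measured in 9 libraries and ribosomal RNA in 9. For poly(A) RNA the authors deposited whole-number counts by gene, not normalized, and the ribosomal RNA table holds estimated counts deposited by the authors for 20 entries. Tools named per the submitters' processing notes were HTSeq, STAR 2.5.2b, DESeq2 and SAMtools 1.9. The same notes list GRCh38 and hg38 as genome builds. The strand setting is not given in the sources used here, so antisense and overlapping genes cannot be told apart. Of 47021 rows, 236 of chromosome Y, XIST and TSIX were left out. No per-sample column was left unmapped. The analysis used R 4.3.3, edgeR 4.0.16, limma 3.58.1 and DESeq2 1.42.0. Coordinates and exon lengths came from GENCODE 29 (GRCh38), which lacked 4.66% of the rows.

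The contrast was fitted with edgeR (TMM, filterByExpr, guide plus VIM-high) for log2 fold changes only. CPM used TMM-scaled sizes of all 9 libraries. Comparisons with sgC used the robust quasi-likelihood test with Benjamini-Hochberg adjustment. In simulated counts for both guides against sgC over 14651 genes, 60.2%, 89.7% and 100% of genes changed 1.5-, 2- and 4-fold were recovered. There were 5 false among 166 calls. The simulation gave all genes the same spread and put each change into every guide library. Its recovery thus does not describe genes that were high in only some libraries of a guide, as the added genes were. The limit from a count of 0 is 3 counts over the group and covers counting error only, since reads carry no molecular identifiers. Ribosomal shares were compared on log2 with 0.5 counts added.

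The libraries, the members and the 33 gene lists were chosen with earlier results of these data known. Some results are not reported here. Named genes followed a rule: the 5 markers, the 20 added genes of highest excess, the 15 of highest fold, up to 6 per list with defining markers near 0, the 8 lowest, 6 per library higher in 1 only, ZNF692 and 4 genes that mark sgZ1. The 131 genes marking the sgZ1 sisters and the genes named from the core, the fold limit and the guide calls were chosen after values were seen. Alternatives covered scaling, tool, filter, fold and level limits, blocks and leaving out libraries.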

Additional observations from a re-analysis of the deposited data

Results flagged for a closer look

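In edgeR's quasi-likelihood fit of the 7 libraries without the VIM-high pair, 11 of the named added genes differed between the guides, each lower in sgZ3 than in sgZ1. Over all 14912 tested genes 23.2% were higher and 29.9% lower in sgZ3, and of the 43 added genes tested 1 was higher and 22 were lower. The 2 sgZ3 sisters were compared with the 2 sgZ1 sisters there, and p-values were adjusted over all tested genes. LOXL2 differed by -6.39 on the log2 scale (adjusted p = 4.66e-14), FSTL1 by -4.11 (adjusted p = 7.13e-12), AXL by -3.54 (adjusted p = 1.38e-12) and PXDN by -3.002 (adjusted p = 2.71e-05). COL1A1 differed by -2.43 (adjusted p = 0.000114), ALDH1A3 by -1.54 (adjusted p = 8.12e-10) and THBS2 by -1.18 (adjusted p = 0.0443). COL4A1 differed by -1.03 (adjusted p = 0.00214), HEG1 by -0.95 (adjusted p = 0.000353), CCDC80 by -0.94 (adjusted p = 0.0405) and MYLK by -0.76 (adjusted p = 0.00238). For all 11 genes both sgZ3 sisters lay below both sgZ1 sisters. The part that different lines or cultures play in this was not tested.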

How the results depend on the processing

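The count of 155 added genes was 239 at a minimum fold of 2, 97 at a minimum fold of 8 and 70 at a minimum level of 2 CPM, and 145 to 185 when each library was left out in turn. It stayed within 1.5 times under the other scalings, DESeq2, no filter, no guide block, the guide and replicate block (175) and with sgC among the sisters. The count of lower genes, 2, was 29, 0 and 0 at those 3 limits and 1 to 26 with a library left out. The mean share of counts added, 0.0742%, was 0.0738% with library totals, 0.0759% with DESeq2, 0.0678% without the guide block, 0.0751% with the guide and replicate block, 0.0733% with sgC among the sisters, 0.0888% and 0.0434% at folds of 2 and 8, and 0.0652% at 2 CPM. Leaving out each library gave 0.0582% to 0.109%. The core held 11 genes at limits of 5 and 0.5 CPM, and 28 to 35 with a library left out. Genes chosen in sgZ3 replicate 3 that passed in sgZ1 replicate 2 were 36.1% at a fold of 2 and 55.9% at 8. Added mesothelial markers numbered 7 to 10 and fibroblast markers 7 to 10 over the alternatives, which for the lists were added after the data were seen.

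Added genes called higher in sgZ1, sgZ3 and both guides against sgC numbered 5, 1 and 3, and 0 in each were lower. The lack of lower calls follows largely from how the genes were chosen. Without both VIM-high libraries 13, 4 and 9 were higher, and 1, 19 and 15 lower. DESeq2 called 10, 4 and 10 higher, against 16.1%, 20.5% and 19.6% of all tested genes. No filter gave 123, 114 and 124, against 9.97%, 10.3% and 10.5%. Leaving out each library gave 0 to 16, 0 to 2 and 0 to 6 higher, and 0 to 0, 0 to 1 and 0 to 1 lower. The added genes tested in these fits numbered 53 to 151. Over all tested genes 9.51% to 18.8%, 11.7% to 22.6% and 8.96% to 22.0% were higher. Without sgC replicate 1, 2 or 3 none of the 151 tested was called higher. Correlations of same-numbered deviations ran from -0.12 to 0.25. Differently numbered libraries were not compared, so whether replicate numbers pair the libraries was not settled. With the replicate block 2, 0 and 2 were higher, against 16.9%, 20.8% and 20.2% of all tested genes. In the cases above the cause was not tested. Depth limits the folds of the 85 added genes under 2 CPM in a VIM-high library.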
